A study of Mus musculus with 64 samples.

Results

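Expression of 10 genes of the p53 response was followed in scat mice, which are homozygous for a mutant allele of Rasa3 and pass through anaemic crisis and partial remission. The genes are Trp53, which encodes p53, and 9 genes that p53 is known to switch on, namely Mdm2, Cdkn1a, Zmat3, Ccng1, Aen, Phlda3, Eda2r, Trp53inp1 and Sesn1. They were found by matching the Ensembl mouse identifiers of the deposited table of normalised counts to these symbols, and all 10 were present among its 26286 genes. RNA had been sequenced from whole bone marrow (BM), whole spleen (SP), and from megakaryocyte-erythroid progenitors (MEP) and stem and myeloid progenitors (SMP) sorted from either organ, in 64 libraries of 18 mice.

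Remission libraries (17 from 5 mice aged 32 to 58 days) and crisis libraries (18 from 3 mice aged 23 to 28 days) came from strain CbyJ.Cby-Rasa3(scat)/Llp, genotype scat/scat. Young wild-type (WT) libraries (18 from 7 mice aged 23 to 28 days) and older WT libraries (10 from 3 mice aged 32 to 58 days) came from +/+ mice of the same strain. The scat allele is carried in the germline, so it is present in every cell of the mutants, and it changes the protein rather than removing the transcript, so the level of Rasa3 does not check the labels. The SMP gate (cells with Kit and CD34, little CD16/32, and neither lineage markers nor Sca) pools stem cells with common myeloid progenitors, because Sca1 is scarce in this BALB background. Each population held 3 crisis and 3 young WT mice, and most mice gave several populations, so the populations are not independent. Spleen SMP differed, since its young WT mice (2805, 2808 and 2810), its older WT mouse (2822) and its remission mice 2866 and 2868 gave no other library. Its crisis mice were those of every other population. Young WT mouse 2955 gave whole bone marrow only, and mouse m25dwt gave whole spleen, both MEP populations and bone marrow SMP. In bulk RNA, fewer cells of a type and less RNA per cell cannot be told apart.

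p53 is a transcription factor that is held at a low level by Mdm2, a ubiquitin ligase whose own gene is a p53 target, and it accumulates when DNA is damaged or ribosome assembly fails. Its targets halt the cell cycle, repair DNA, adjust metabolism or set off cell death. In red cell precursors the pathway is known for its part in anaemias caused by ribosomal protein mutations. The abundance of Trp53 mRNA says little about p53 activity, which is set mostly at the level of the protein.

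p53 binds pairs of a 10-base half-site, and the promoter windows of the members were searched for it. Known p53 sites also lie outside such windows, as in Mdm2, whose best-known sites are within an intron. RefSeq windows (assembly GRCm38.p6, 250 bases before to 50 after each start site) were matched for 8 of the 10 members, 11 windows in all, and not for Zmat3 and Trp53inp1. A half-site was found in 7 windows of 6 members (Cdkn1a, Ccng1, Aen, Mdm2, Sesn1 and Trp53), while 8.36% of all 32851 windows of this length held one. The half-site reads the same on both strands, and no other motif was searched. Cdkn1a has 2 windows, and the second, chr17:29093519-29093818, at a start site farther along the gene, holds 0 half-sites. The first Cdkn1a window, chr17:29090729-29091028 on the plus strand, holds 2 half-sites, shown in capitals, beginning 73 and 51 bases before the start site of that window.
Cdkn1a: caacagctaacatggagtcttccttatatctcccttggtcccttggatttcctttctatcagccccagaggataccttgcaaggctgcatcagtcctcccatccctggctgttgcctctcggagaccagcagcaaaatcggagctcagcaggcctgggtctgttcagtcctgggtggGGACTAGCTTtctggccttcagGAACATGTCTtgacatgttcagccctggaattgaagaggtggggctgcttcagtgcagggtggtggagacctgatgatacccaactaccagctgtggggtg
Stretches of 50 bases around the half-sites of 3 other members follow, with the half-site in capitals: Ccng1 (chr11:40755442-40755491, minus strand), Aen (chr7:78895917-78895966, plus strand) and Mdm2 (chr10:117710915-117710964, minus strand).
Ccng1: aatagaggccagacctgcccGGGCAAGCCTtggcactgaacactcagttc
Aen: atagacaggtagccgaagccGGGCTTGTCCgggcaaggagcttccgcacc
Mdm2: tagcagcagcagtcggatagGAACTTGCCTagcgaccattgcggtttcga
A pair of adjoining half-sites with at most 1 mismatch over 20 bases was present in the windows of Cdkn1a (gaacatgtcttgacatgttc) and Ccng1 (agacctgcccgggcaagcct), against 29 of all 32851 windows (0.0883%). The closest pair in Aen (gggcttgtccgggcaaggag) had 3 mismatches, as had those in Sesn1 and Trp53, a limit that 6.29% of all windows met. The closest pairs had 5 mismatches in Mdm2 and Phlda3 and 6 in Eda2r. These values are for the better window of a member with 2. The second Cdkn1a window had 5 mismatches in its closest pair, and the first Sesn1 window, which holds 0 half-sites, had 6. A match describes these letters and is no measurement of binding.

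On GRCm38, Cdkn1a lies on chromosome 17 (29090976 to 29100727), Zmat3 on 3 (32334792 to 32366014), Ccng1 on 11 (40748552 to 40755311), Aen on 7 (78895854 to 78911209) and Mdm2 on 10 (117688875 to 117710758). Trp53inp1 lies on chromosome 4 (11156431 to 11174379), Phlda3 on 1 (135766119 to 135769136), Eda2r on X (97333840 to 97377216), Sesn1 on 10 (41809935 to 41908424) and Trp53 on 11 (69580359 to 69591873). Of the exonic bases of Cdkn1a, 273 of 3553 are shared with AC167363.2, a gene on the opposite strand, and reads there could not be assigned to one of the pair without strand information. The other 9 members share no exonic base with another annotated gene.

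Libraries held 33.6 to 107.6 M normalised counts in total (M, mega) and 16413 to 19940 genes above 0. Columns were rescaled within each population, and values below are these rescaled normalised counts unless a log2 change is named. Differences were tested with limma on log2(value + 1) over all genes with a mean of at least 10, with Benjamini-Hochberg adjustment over all of them, and a gene is called at an adjusted p under 0.05. The labels do not say whether the mice of a group differ in litter or day. P-values measure the spread between mice of the same state, estimated for each gene over all states of a population. Remission and older WT mice therefore also enter the p-values of crisis against young WT. All 10 members passed the filter in each of the 6 populations. Cd34, part of the SMP gate, had a median of 32752 in young WT BM SMP and 703 in young WT BM MEP on a scale shared by all libraries, and Epor, the erythropoietin receptor, had 512 in young WT BM SMP and 9256 in young WT BM MEP. On that scale Cd34 ran from 94.6 to 873 in young WT BM MEP and from 88.3 to 146 in crisis BM MEP. One young WT spleen MEP library, of mouse m25dwt, stood apart, with 275 rescaled counts of Cd34 and 2377 of Mpo, a granule enzyme of myeloid precursors, against at most 33.3 and 122 in the other young WT spleen MEP libraries.

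Some mice went against their labels over all genes. On an axis that runs from 0 at the young WT mean to 1 at the crisis mean, remission mouse 2726 lay at -0.25 in whole spleen and between -0.03 and 0.26 in its 3 bone marrow libraries, while the other remission libraries lay between 0.16 and 0.66. Older WT mouse 27265 lay between 0.35 and 0.53 in its 4 assigned libraries, while the other older WT libraries lay between -0.24 and 0.17. A further whole spleen library of mouse 27265 is labelled as a mutant in remission, against the labels of its other libraries, and entered no comparison. The remission values named below that include mouse 2726 are also given without it. In bone marrow, the fits without mouse 2726 also left out mouse 27265.

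Crisis was compared with young WT to ask what the disease at its height does to each population. Among the 10 members, 2 rose and 1 fell in whole bone marrow, where 8.59% of all genes were called (3.52% higher and 5.08% lower). Bone marrow SMP had 1 riser and 1 faller, with 7.52% of all genes called (3.74% higher and 3.79% lower). Whole spleen likewise had 1 riser and 1 faller, with 15.2% of all genes called (2.80% higher and 12.4% lower). Spleen SMP had 3 risers and 1 faller, with 31.0% of all genes called (16.2% higher and 14.8% lower). In both MEP populations limma called 0 members, with 0.00693% of all genes called in bone marrow (0.00693% higher and 0% lower) and 0.0366% in spleen (0.0293% higher and 0.00731% lower).

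At an unadjusted p under 0.05, limma passed 6 members in whole bone marrow (25.5% of all genes), 8 in bone marrow MEP (12.7%), 4 in bone marrow SMP (26.7%), 5 in whole spleen (36.1%), 5 in spleen MEP (19.7%) and 5 in spleen SMP (46.5%). Every crisis mouse lay above every young WT mouse for 4 members in whole bone marrow (15.3% of all genes), 6 in bone marrow MEP (10.2%), 4 in bone marrow SMP (15.2%), 5 in whole spleen (28.3%), 3 in spleen MEP (13.5%) and 4 in spleen SMP (25.6%). Every crisis mouse lay below every young WT mouse for 1 member in whole bone marrow (17.6% of all genes), 0 in bone marrow MEP (9.02%), 1 in bone marrow SMP (15.0%), 1 in whole spleen (29.9%), 1 in spleen MEP (14.9%) and 3 in spleen SMP (24.7%). The median log2 change of the members was 0.32 in whole bone marrow, 0.67 in bone marrow MEP, 0.44 in bone marrow SMP, 0.45 in whole spleen, 0.42 in spleen MEP and 0.55 in spleen SMP, and that of all genes lay between -0.05 and 0.01.

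**Figure D1:**
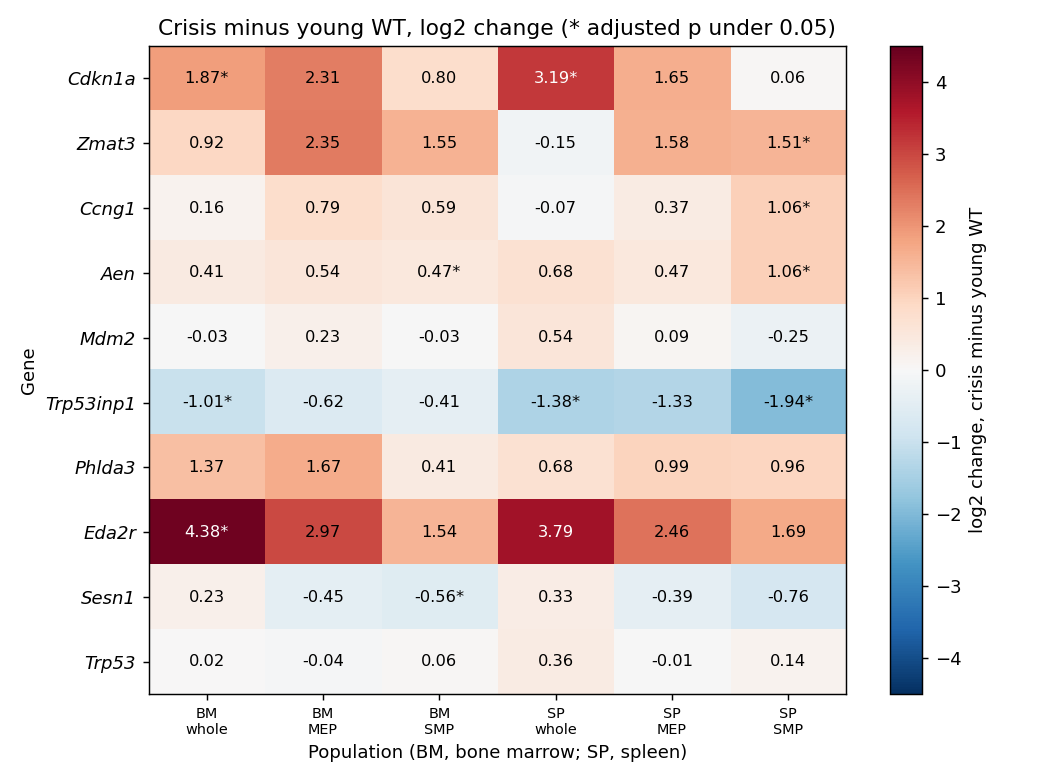
Log2 change, crisis minus young WT, of the 10 members (rows) in the 6 populations (columns; 3 crisis and 3 young WT mice each). Asterisks mark adjusted p under 0.05 in limma. Eda2r, Cdkn1a and Zmat3 hold the strongest red fields, the Trp53inp1 row is blue throughout, and Mdm2 and Trp53 stay between -0.25 and 0.54.

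For Trp53 itself, limma called no difference between crisis and young WT in any of the 6 populations, with log2 changes between -0.04 and 0.36. The highest value was in whole spleen, where crisis mice had 11964, 13083 and 11415 normalised counts of Trp53, against 9946, 8705 and 9699 in young WT mice. The groups did not overlap there, and 28.3% of all genes were likewise higher without overlap in whole spleen. The change of 0.36 ± 0.18 (SE) had an adjusted p of 0.18 in limma and of 0.04 without remission mouse 2726. In whole bone marrow, spleen MEP and spleen SMP the sign of the Trp53 change flipped when the deposited values were used without rescaling.

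Mdm2, the ligase that holds p53 down, was called in 0 of 6 populations. In whole spleen, crisis mice had 6432, 5841 and 5040 normalised counts, against 4519, 4081 and 3372 in young WT mice, a log2 change of 0.54 ± 0.20 (SE, adjusted p = 0.0942 in limma). Every crisis mouse lay above every young WT mouse there, and without mouse 2726 the adjusted p of Mdm2 was 0.0139 in limma, and Aen and Eda2r were called in whole spleen as well. In spleen SMP the order was the opposite, with 3005, 3422 and 3119 in crisis mice, against 3780, 3862 and 3680 in young WT mice (log2 change -0.25 ± 0.12, adjusted p = 0.141 in limma). In the other 4 populations the log2 change of Mdm2 lay between -0.03 and 0.23.

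**Figure D2:**
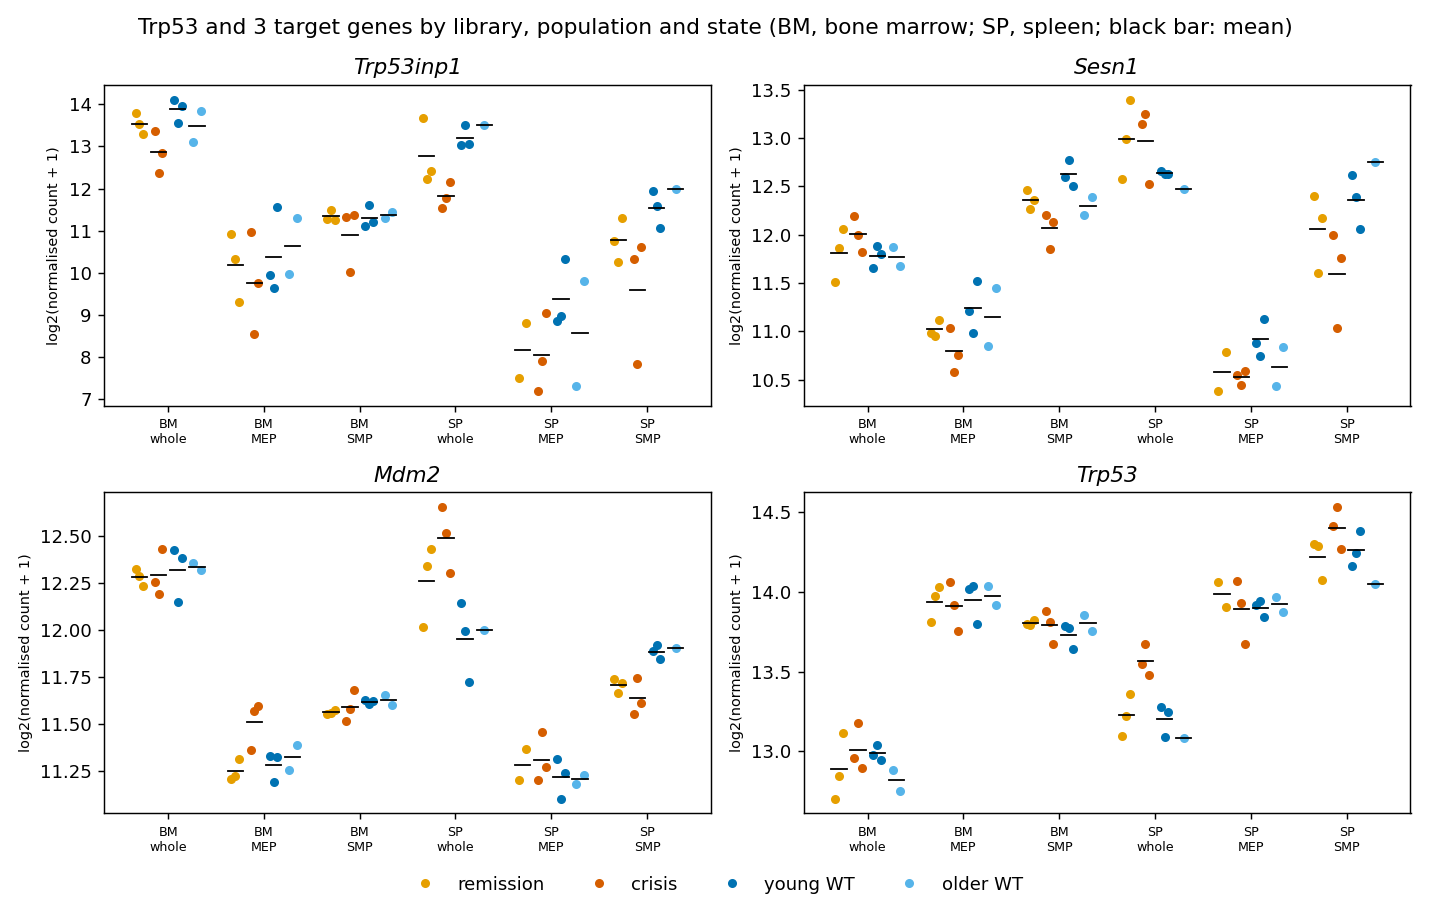
Log2(normalised count + 1) of Trp53inp1, Sesn1, Mdm2 and Trp53 in each library, by population and state (points are libraries, bars are means; 1 to 3 mice a group). Crisis points of Trp53inp1 lie below all young WT points in whole bone marrow, whole spleen and spleen SMP, and crisis and young WT points of Trp53 are apart only in whole spleen.

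Cdkn1a encodes p21, the inhibitor of cyclin-dependent kinases through which p53 arrests the cell cycle. Whole bone marrow had 2463, 2079 and 3533 normalised counts in crisis mice, against 629, 708 and 832 in young WT mice. Cdkn1a rose 3.65-fold there (log2 change 1.87 ± 0.26 SE, adjusted p = 0.0216 in limma). In whole spleen it had 1533, 1429 and 2987 in crisis mice, against 147, 210 and 277 in young WT mice. It rose 9.11-fold (log2 change 3.19 ± 0.48, adjusted p = 0.0224 in limma), and the lowest crisis mouse was above the highest young WT mouse in both organs.

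In sorted cells the picture for Cdkn1a was less even. Bone marrow MEP had 411, 1304 and 2521 normalised counts of Cdkn1a in crisis mice, against 201, 151 and 359 in young WT mice, and the log2 change of 2.31 ± 0.69 (SE) had an adjusted p of 0.306 in limma. Spleen MEP had 96.5, 380 and 872 in crisis mice, against 42.7, 72.7 and 323 in young WT mice. The highest young WT value there was that of mouse m25dwt, whose library stood apart in Cd34 and Mpo. Spleen MEP had 0 called members with or without this library. In bone marrow SMP the log2 change was 0.80 ± 0.47 (adjusted p = 0.307 in limma). In spleen SMP crisis mice had 1019, 694 and 988 counts of Cdkn1a, against 846, 736 and 997 in young WT mice, the smallest change of the gene at 0.06 ± 0.37, with a sign that flipped in the unscaled and regularised log2 values.

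**Figure D3:**
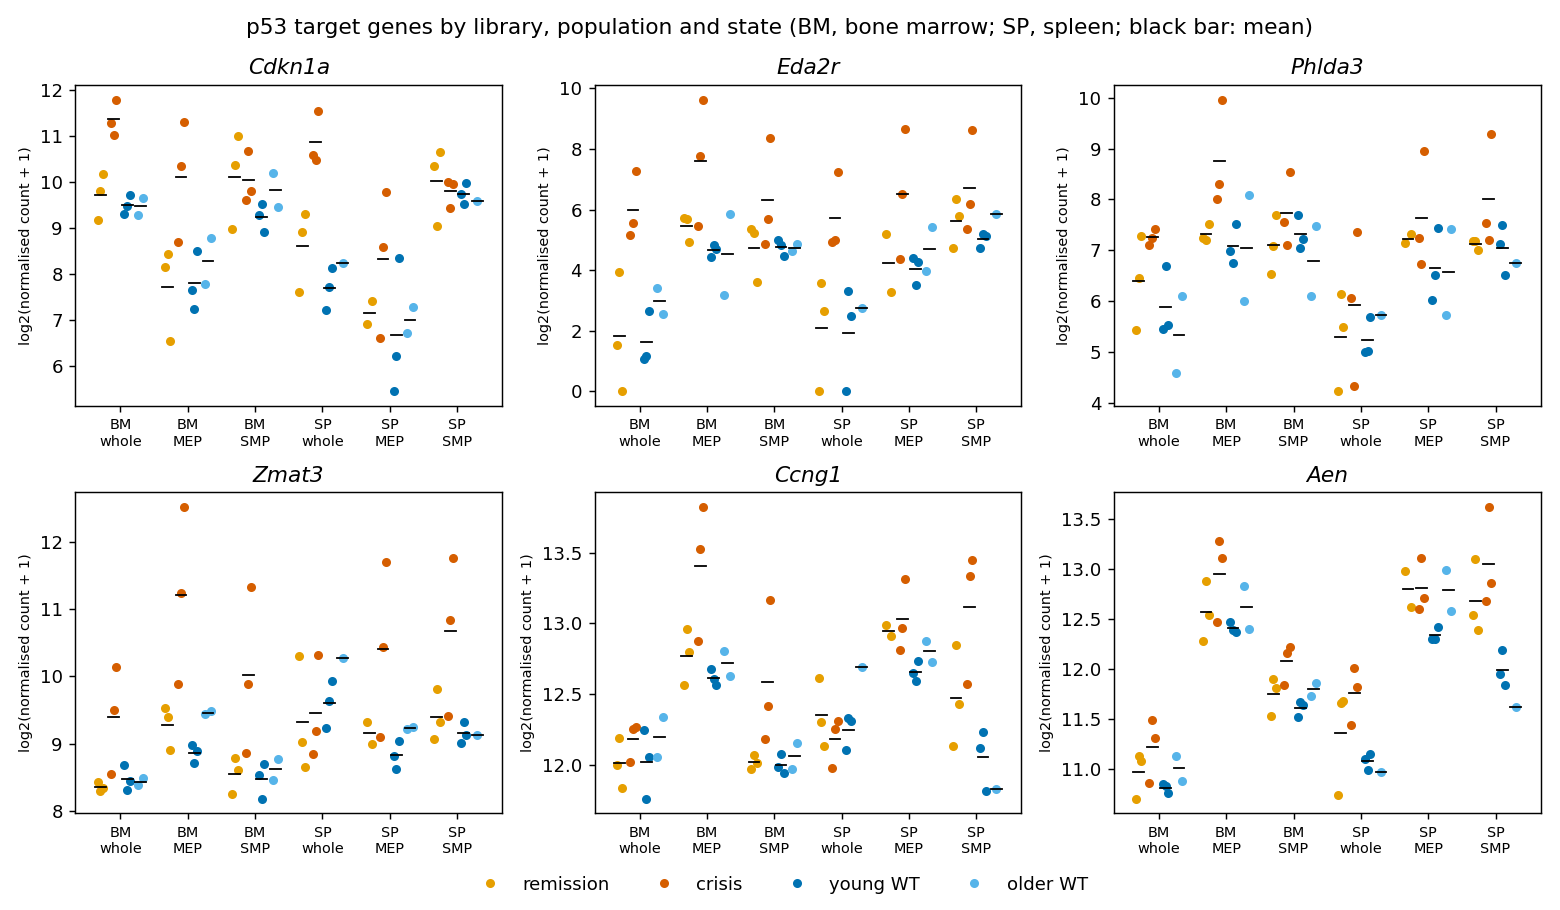
Log2(normalised count + 1) of Cdkn1a, Eda2r, Phlda3, Zmat3, Ccng1 and Aen in each library, by population and state (points are libraries, bars are means; 1 to 3 mice a group). In whole bone marrow and whole spleen all crisis points of Cdkn1a and Eda2r lie above the points of the other states, and within crisis the points of Zmat3 spread widely in every sorted population.

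Zmat3 encodes a zinc finger protein that binds RNA and acts in splicing and mRNA stability. In spleen SMP it had 679, 1825 and 3480 normalised counts in crisis mice, against 516, 640 and 558 in young WT mice. It rose 2.86-fold there (log2 change 1.51 ± 0.48 SE, adjusted p = 0.0382 in limma). Bone marrow MEP showed the widest gap, with 948, 2420 and 5855 in crisis mice, against 503, 420 and 477 in young WT mice, a log2 change of 2.35 ± 0.50 (adjusted p = 0.255 in limma). The groups of Zmat3 did not overlap in any of the 4 sorted populations, while whole spleen showed a log2 change of -0.15 ± 0.50 with overlapping groups. The change in whole bone marrow was 0.92 ± 0.32 (adjusted p = 0.0955 in limma).

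Ccng1 encodes cyclin G1, which recruits a phosphatase to Mdm2. In spleen SMP it had 6090 normalised counts in crisis mouse 2608, 10308 in mouse 2629 and 11170.4 in mouse 2953, against 4434, 4817 and 3600 in young WT mice. It rose 2.09-fold (log2 change 1.06 ± 0.25 SE, adjusted p = 0.0223 in limma). Without rescaling, its change in spleen SMP was 0.55, since the median of all genes moved to -0.55 there on the deposited values. Bone marrow MEP had 7499, 11792 and 14485 counts of Ccng1 in crisis mice, against 6547, 6238 and 6041 in young WT mice, with no overlap (log2 change 0.79 ± 0.20, adjusted p = 0.272 in limma). In whole bone marrow and whole spleen the groups of Ccng1 overlapped, with changes of 0.16 and -0.07.

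Aen encodes a nuclease that digests DNA in dying cells. In spleen SMP it had 6550.2, 12539 and 7412 normalised counts in crisis mice, against 3955, 4656 and 3653 in young WT mice, and rose 2.08-fold (log2 change 1.06 ± 0.26 SE, adjusted p = 0.0228 in limma). Bone marrow SMP had 3665, 4574 and 4763 in crisis mice, against 2934, 3242 and 3189 in young WT mice, and Aen rose 1.38-fold (log2 change 0.47 ± 0.12, adjusted p = 0.0398 in limma). No crisis mouse overlapped a young WT mouse in either SMP population. Its change was positive in all 6 populations, from 0.41 to 1.06.

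Phlda3, which keeps the kinase Akt off the membrane, was called in 0 of 6 populations. Its log2 change was positive in all 6, from 0.41 ± 0.44 in bone marrow SMP to 1.67 ± 0.59 (SE) in bone marrow MEP. In bone marrow MEP crisis mice had 256, 315 and 999.6 normalised counts of Phlda3, against 126, 107 and 183 in young WT mice (adjusted p = 0.343 in limma). Crisis mice had 138, 150.5 and 170.4, against 42.7, 103 and 45.2 in young WT mice, in whole bone marrow (log2 change 1.37 ± 0.55, adjusted p = 0.145 in limma). Crisis and young WT did not overlap in these 2 populations and overlapped in the other 4.

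Eda2r encodes a receptor for ectodysplasin A2, a member of the TNF family, and was scarce in WT tissue. Whole bone marrow had 34.5, 46.5 and 154 normalised counts in crisis mice, against 1.07, 1.23 and 5.26 in young WT mice. Eda2r rose there (log2 change 4.38 ± 1.03 SE, adjusted p = 0.0348 in limma), and the size depends on the pseudocount, being 2.59 with 10 in place of 1. In whole spleen it had 29.6, 30.5 and 152 in crisis mice, against 0, 8.84 and 4.65 in young WT mice (log2 change 3.79 ± 1.25, adjusted p = 0.0682 in limma). Bone marrow MEP of crisis mice had 43.2, 215 and 794 counts of Eda2r, against 20.6, 27.4 and 24.9 in young WT mice (log2 change 2.97 ± 0.95, adjusted p = 0.326 in limma). The crisis mouse 2953 alone held most of the Eda2r counts of its group in every population.

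Trp53inp1 encodes a nuclear protein that promotes autophagy and p53-dependent death, and its log2 change was negative in all 6 populations. Whole bone marrow had 10547, 5333 and 7394 normalised counts in crisis mice, against 17725, 12092 and 16009 in young WT mice, and Trp53inp1 fell 2.02-fold (log2 change -1.01 ± 0.27 SE, adjusted p = 0.0446 in limma). In whole spleen it had 2975, 3517 and 4579 in crisis mice, against 8386, 11695 and 8568 in young WT mice, and fell 2.60-fold (log2 change -1.38 ± 0.37, adjusted p = 0.0408 in limma). In spleen SMP it had 1289, 227 and 1573 in crisis mice, against 3919.9 in mouse 2805, 3092 in mouse 2808 and 2153 in mouse 2810 of young WT. It fell 3.84-fold (log2 change -1.94 ± 0.62, adjusted p = 0.039 in limma). Its change was negative in the other 3 populations as well, from -1.33 to -0.41, with overlapping groups. Without crisis mouse 2629 the spleen SMP change of Trp53inp1 was -1.05 (adjusted p = 0.0583 in limma).

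Sesn1 encodes sestrin 1, which restrains mTORC1 and acts against oxidative stress. Bone marrow SMP had 4732, 3695 and 4502 normalised counts in crisis mice, against 6218, 6991 and 5825 in young WT mice, and Sesn1 fell 1.48-fold (log2 change -0.56 ± 0.11 SE, adjusted p = 0.0219 in limma). In spleen SMP it had 4090, 2104 and 3469 in crisis mice, against 6299.8, 5372 and 4275 in young WT mice, with no overlap (log2 change -0.76 ± 0.28, adjusted p = 0.0592 in limma). The sign differed by population, from -0.76 to -0.39 in the sorted cells and at 0.23 and 0.33 in whole bone marrow and whole spleen.

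These calls rest on few mice. In whole bone marrow, leaving out crisis mouse 2629 or 2953, or any 1 of the 3 young WT mice, ended all calls of members and of genes at large (limma, 0 genes adjusted, 2954 to 3688 at an unadjusted p under 0.05), while leaving out crisis mouse 2608 gave 5 called members. The log2 change of Cdkn1a without 1 mouse stayed between 1.66 and 2.04 in whole bone marrow and between 2.86 and 3.40 in whole spleen. In whole spleen, only the call of Cdkn1a remained without mouse 2608 and 0 members were called without any other 1 of the mice compared. In bone marrow SMP, Sesn1 was called without mouse 2953, 5 members without mouse 2608 and 0 without any other mouse compared. In spleen SMP, Aen and Trp53inp1 were called without mouse 2953, 6 members without mouse 2608 and 0 without any other mouse compared, and the deposited values without rescaling gave 0 as well. In bone marrow MEP, leaving out crisis mouse 2608 gave 4 called members (Cdkn1a, Zmat3, Ccng1 and Eda2r), and in spleen MEP 1 (Zmat3).

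The crisis mice kept an order across populations. Mouse 2953 had the highest and mouse 2608 the lowest level among the 3 crisis mice in 6 of 6 populations for Zmat3, Ccng1 and Eda2r. Above the mean of young WT, Zmat3 stood at a median log2 difference of 2.73 over the 6 populations in mouse 2953, 1.51 in mouse 2629 and 0.27 in mouse 2608. For Eda2r these medians were 4.80 in mouse 2953, 2.75 in mouse 2629 and 0.57 in mouse 2608. Phlda3 was highest in mouse 2953 in 6 of 6 populations, with a median of 2.18, against 0.11 in mouse 2629 and 0.70 in mouse 2608.

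The order was not the same for every member. Aen was highest in mouse 2629 in 5 of 6 populations and lowest in mouse 2608 in 6 of 6. Trp53 was lowest in mouse 2953 in 6 of 6 populations, with a median log2 difference of -0.07 from young WT, and Trp53inp1 was lowest in mouse 2629 in 4 of 6. Cdkn1a was highest in mouse 2953 in 4 of 6 populations. The 6 libraries of a mouse share the animal, so these orders describe 3 mice and not 18 independent samples.

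**Figure D4:**
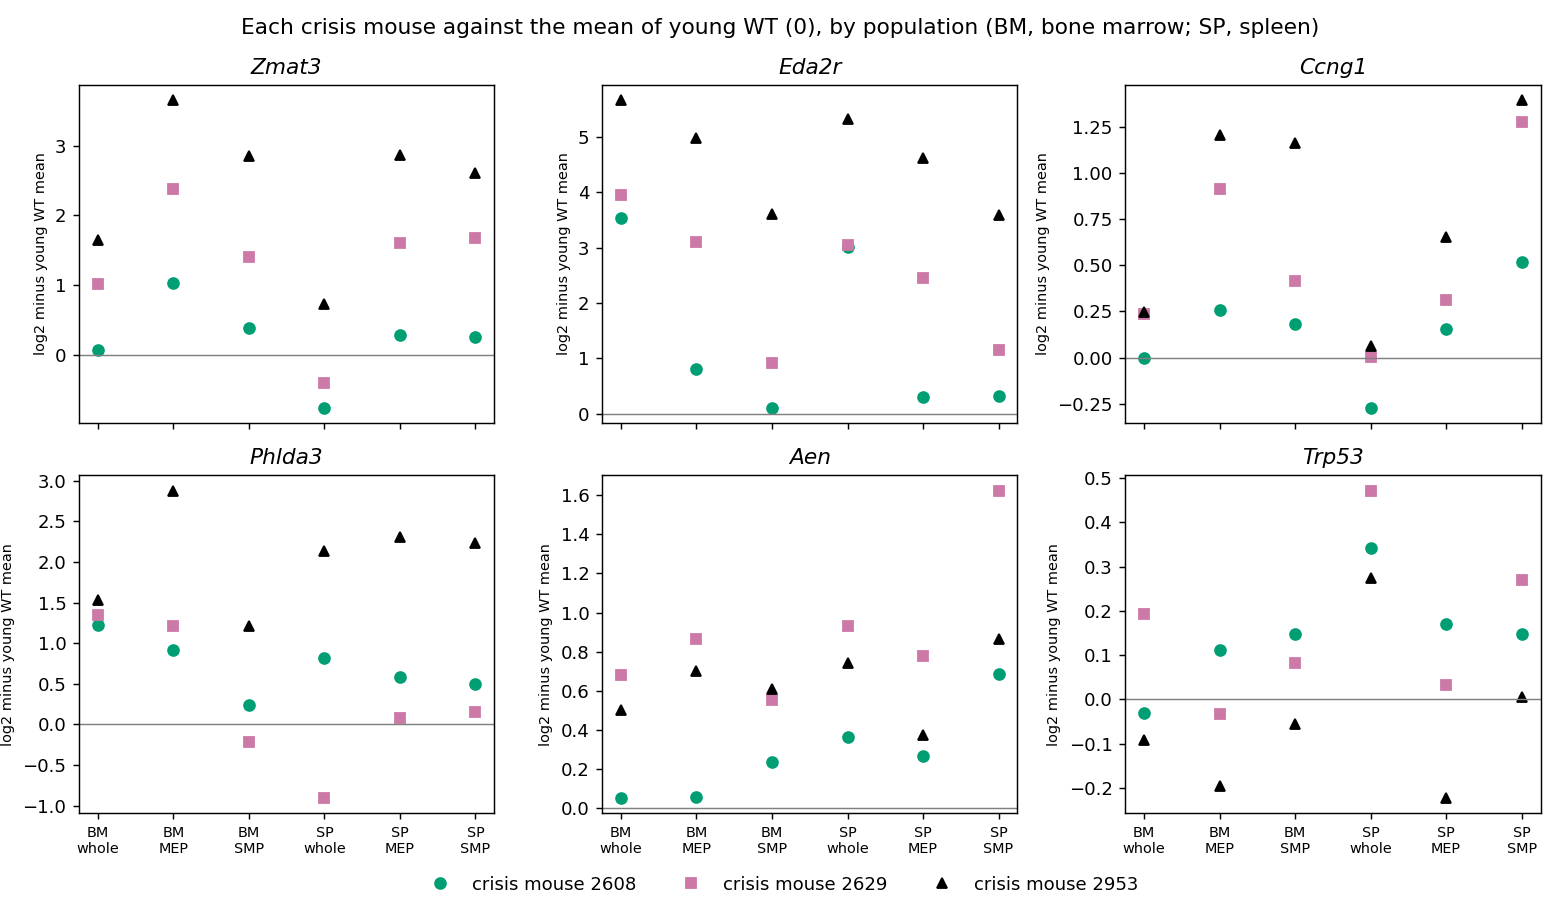
Log2 value of each of the 3 crisis mice minus the mean of the young WT mice (0), for 6 members in the 6 populations. For Zmat3, Eda2r and Ccng1 the triangles of mouse 2953 are highest and the circles of mouse 2608 lowest in every population, and for Trp53 the triangles are lowest in every population.

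Remission was compared with crisis and with older WT. Remission mice were older than crisis mice, and the direct comparison of these states was not adjusted for age. Cdkn1a in whole bone marrow averaged 874 ± 289 normalised counts in remission (SD, n = 3), 2692 ± 754 in crisis (n = 3), 723 ± 102 in young WT (n = 3) and 712 ± 131 in older WT (n = 2). The comparisons of crisis with young WT and of remission with crisis share the crisis libraries. Limma called 0 members in any of the 6 comparisons of remission with crisis, in which 1.25% of all genes were called in bone marrow SMP, 0.00693% in bone marrow MEP and 0 genes in the other 4. An unadjusted p under 0.05 in limma was reached by 4 members in whole bone marrow (15.7% of all genes), 6 in bone marrow MEP (11.4%), 4 in bone marrow SMP (23.1%), 3 in whole spleen (20.1%), 1 in spleen MEP (6.96%) and 2 in spleen SMP (20.8%).

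Cdkn1a in remission lay below crisis without overlap in whole bone marrow, whole spleen and bone marrow MEP. The share of all genes without overlap was not counted for remission against crisis, here or for the members below. Whole bone marrow had 577, 889 and 1155 normalised counts in remission mice, against 2463, 2079 and 3533 in crisis mice (log2 change -1.64 ± 0.26 SE, adjusted p = 0.0911 in limma), and the change was -1.37 without mice 2726 and 27265. Whole spleen had 194, 480.3 and 631 in remission mice, against 1533, 1429 and 2987 in crisis mice (log2 change -2.26 ± 0.48, adjusted p = 0.133 in limma). Without mouse 2726, which had the 194 counts, the change in whole spleen was -1.77 and Cdkn1a was called (adjusted p = 0.0272 in limma). Bone marrow MEP had 283, 343 and 92.2 in remission mice, against 411, 1304 and 2521 in crisis mice (log2 change -2.41 ± 0.69, adjusted p = 0.283 in limma), and the change was -2.63 without mice 2726 and 27265. Bone marrow SMP had 499, 1322 and 2032 in remission mice, against 781, 1634 and 896 in crisis mice. Its log2 change of 0.08 ± 0.47 was 0.65 without mice 2726 and 27265. In spleen the log2 change of Cdkn1a was -1.16 ± 0.93 in MEP and 0.22 ± 0.37 in SMP, with overlapping groups.

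Zmat3 in bone marrow MEP had 741, 673 and 481 normalised counts in remission mice, against 948, 2420 and 5855 in crisis mice (log2 change -1.93 ± 0.50 SE, adjusted p = 0.246 in limma), and the groups did not overlap. Without mice 2726 and 27265 the change was -2.06. Eda2r in whole bone marrow had 1.90, 14.3 and 0 in remission mice, against 34.5, 46.5 and 154 in crisis mice (log2 change -4.17 ± 1.03, adjusted p = 0.148 in limma), and the change was -4.03 without mice 2726 and 27265. Trp53inp1 in whole spleen had 13082, 4763 and 5493 in remission mice, against 2975, 3517 and 4579 in crisis mice, again without overlap (log2 change 0.95 ± 0.37, adjusted p = 0.212 in limma). The 13082 counts are those of mouse 2726, and without it the change was 0.48 (adjusted p = 0.27 in limma).

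Against older WT, limma called 0 members in 6 comparisons, with 2 genes called in spleen SMP (0.0129%) and 0 in the other 5. An unadjusted p under 0.05 in limma was reached by 1 member in spleen SMP (8.17% of all genes) and by 0 in whole bone marrow (1.15%), bone marrow MEP (1.39%), bone marrow SMP (1.28%), whole spleen (0.801%) and spleen MEP (4.20%). The smallest unadjusted p of a member was that of Aen in spleen SMP, with 5946, 8730.4 and 5351 normalised counts in remission mice, against 3146 in the single older WT mouse (log2 change 1.05 ± 0.37 SE, adjusted p = 0.587 in limma). A lone library is assumed in the fit to vary like the other groups. Without mouse 2726, Trp53inp1 was called in whole spleen, with 4763 and 5493 in the other remission mice, against 11701 in the single older WT mouse (log2 change -1.20, adjusted p = 0.00951 in limma). With mouse 2726 that change was -0.74 ± 0.53 (adjusted p = 0.803 in limma).

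The crisis effect was set against itself between organs and between cell types, as a difference of 2 log2 changes fitted jointly with the mouse as a random block, so it need not equal the gap between the separate fits. In the differences with spleen SMP, no young WT mouse gave both populations. Between the whole organs, young WT mice 2658 and 2685 gave both, mouse m25dwt only whole spleen and mouse 2955 only whole bone marrow. Limma called 0 members in the 5 differences, where 10.4% of all genes were called between whole spleen and whole bone marrow, 0.0195% between spleen and bone marrow SMP, 0 genes between spleen and bone marrow MEP (696 at an unadjusted p under 0.05), 0.856% between MEP and SMP of bone marrow and 5.31% between MEP and SMP of spleen. Cdkn1a changed by 3.19 in whole spleen and by 1.87 in whole bone marrow, a jointly fitted difference of 1.32 ± 0.44 (SE, adjusted p = 0.0644 in limma). Mdm2 changed by 0.54 in whole spleen and by -0.03 in whole bone marrow, a difference of 0.50 ± 0.18 (adjusted p = 0.0875 in limma). Without mice 2726 and 27265, the differences of Cdkn1a and Mdm2 were the 2 called between the whole organs. In spleen, Mdm2 changed by 0.09 in MEP and by -0.25 in SMP, a difference of 0.43 ± 0.13 (adjusted p = 0.0579 in limma).

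Markers of other cells moved in the same comparisons. In whole spleen, the summed level of 6 B cell markers was 5610.0 to 13950 in crisis mice, against 96376 to 113967 in young WT mice, and 6 of 6 fell. The 6 markers of T and NK cells summed to 787 to 2127 in crisis spleens, against 10978 to 17753 in young WT spleens, and 6 of 6 fell. The 7 erythroid markers summed to 6.99e+06 to 1.52e+07 in crisis spleens, against 6.05e+06 to 6.38e+06 in young WT spleens, without overlap. Of these, 0 were called, and 7 of 7 log2 changes were positive. The B cell markers of whole bone marrow summed to 4962 to 52465 in crisis mice, against 89785 to 106654 in young WT mice, with 2 of 6 called lower, and 3 of 7 erythroid markers rose. The 5 megakaryocyte markers of whole bone marrow summed to 3258 to 4473 in crisis mice, against 4892 to 7451 in young WT mice. Those sums did not overlap, and 0 of the 5 were called. In SMP, 6 of 7 erythroid markers rose and 2 of 6 stem and progenitor markers fell in bone marrow, and 4 of 7 rose and 4 of 6 fell in spleen. The stem and progenitor markers summed to 39419 to 107867 in crisis spleen SMP, against 131529 to 170403 in young WT spleen SMP. Bone marrow MEP had no called marker, but sums did not overlap for T and NK cells (49.3 to 130.4 in crisis, 149 to 433 in young WT), macrophages (10.4 to 31.3 in crisis, 49.9 to 84.9 in young WT) and megakaryocytes (381 to 532 in crisis, 606 to 957 in young WT). Mpo in bone marrow MEP was 529.98 to 1013 in crisis and 2431 to 5784 in young WT on the shared scale. Spleen MEP also had no called marker, with sums without overlap for T and NK cells (20.5 to 41.7 in crisis, 122 to 166 in young WT) and megakaryocytes (186 to 247 in crisis, 449.6 to 686 in young WT). No marker was at 0 in every crisis or every young WT library of a population, and the part of these shifts in the changes of the members was not tested.

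Of 40 other known p53 targets, 5 rose (3.52% of all genes) and 1 fell (5.08%) in whole bone marrow between crisis and young WT. The risers were Ddit4, an inhibitor of mTORC1 (log2 change 1.70 ± 0.38 SE), Bbc3, which encodes the death protein Puma (1.39 ± 0.36), Gadd45a, a growth arrest gene (1.24 ± 0.26), the kinase gene Dyrk3 (1.08 ± 0.29) and the hydrolase gene Abhd4 (0.71 ± 0.15). Rrm2b, the p53-induced subunit of ribonucleotide reductase, fell (-1.51 ± 0.34). The median of the list was 0.07, against 0.01 for all genes.

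In bone marrow SMP, 6 of the 39 tested other targets rose (3.74% of all genes) and 1 fell (3.79%). The 6 with the largest changes were Ddit4 (log2 change 1.94 ± 0.43 SE), Plk3 (1.29 ± 0.29), Pmaip1, which encodes Noxa (1.26 ± 0.31), the ferrireductase gene Steap3 (0.71 ± 0.16), Bax (0.48 ± 0.10) and Rps27l (0.48 ± 0.12), of which Pmaip1 and Bax promote apoptosis. In spleen SMP 11 of 39 rose (16.2% of all genes) and 5 fell (14.8%), a share of 31.0% of all genes being called there. The 6 largest changes were those of Trp53cor1, the long noncoding RNA lincRNA-p21 (-2.34 ± 0.55), Trp53inp2 (-1.65 ± 0.56), Rps27l (1.44 ± 0.29), the thiamine transporter gene Slc19a2 (1.40 ± 0.35), Steap3 (1.30 ± 0.37) and Trp53i13 (-1.09 ± 0.33). Trp53cor1 lies beside Cdkn1a in the genome and had 21.8 ± 12.7 normalised counts in crisis spleen SMP, against 109 ± 48.7 in young WT spleen SMP (SD, n = 3 each).

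In whole spleen 0 of 39 other targets rose (2.80% of all genes) and 3 fell (12.4%). They were the death receptor gene Fas (log2 change -2.38 ± 0.55 SE), the sugar phosphatase gene Tigar (-2.10 ± 0.50) and the repair gene Xpc (-1.40 ± 0.37). Lymphocyte markers fell in the same organ, and a link to these falls was not tested. The median of the list was 0.27, against -0.05 for all genes. Both MEP populations had 0 called among 38 and 35 tested (0.00693% of all genes in bone marrow and 0.0366% in spleen). In each, 9 had an unadjusted p under 0.05 in limma (12.7% of all genes in bone marrow and 19.7% in spleen).

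**Figure D5:**
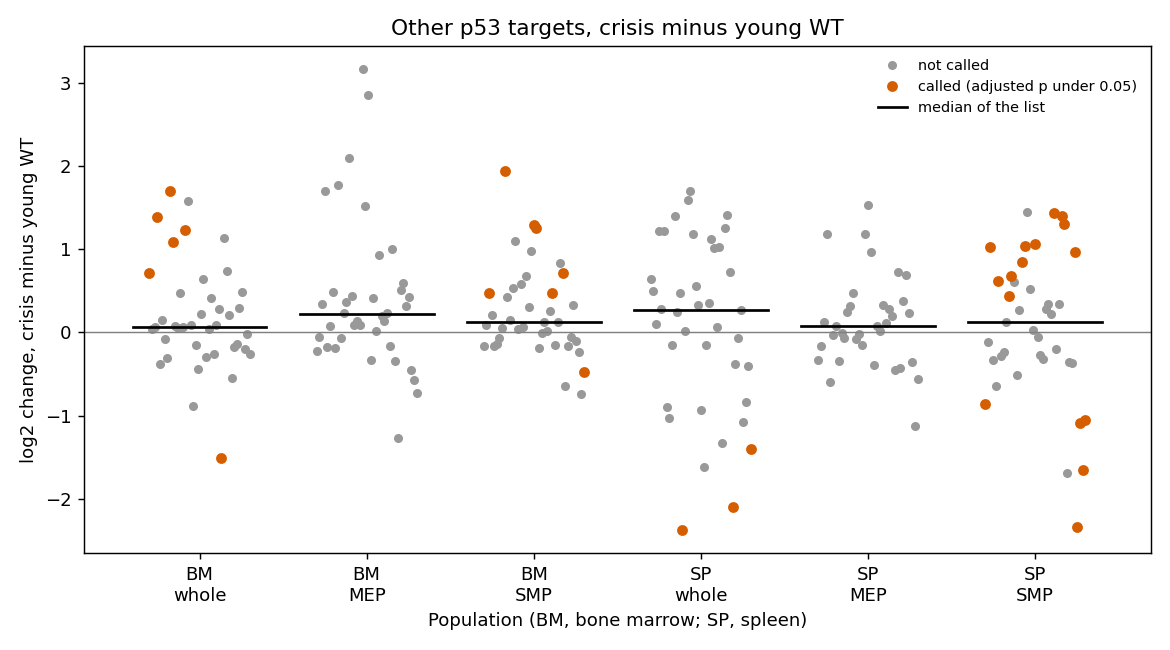
Log2 change, crisis minus young WT, of the tested genes among 40 other p53 targets in the 6 populations (points are genes; orange points passed an adjusted p of 0.05 in limma; the line is the median). Medians lie between 0.07 and 0.27, and called genes lie on both sides of 0 in whole bone marrow, bone marrow SMP and spleen SMP.

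Among 15 regulators of p53, 13 were tested in whole spleen and 12 in each other population. Limma called 1 of 12 higher in whole bone marrow (3.52% of all genes), Hipk2, a kinase of p53 (log2 change 1.10 ± 0.27 SE). In bone marrow SMP 2 of 12 fell (3.79% of all genes), the DNA damage kinase gene Atm (-0.73 ± 0.11) and Trp53bp1 (-0.58 ± 0.12). Trp53bp1 also fell in spleen SMP (-0.97 ± 0.25), as 1 of 12 there (14.8% of all genes). Limma called 0 regulators in whole spleen (15.2% of all genes) and in MEP of bone marrow (0.00693%) and of spleen (0.0366%). Of 5 other inhibitors of cyclin-dependent kinases, 0 were called in any population. An unadjusted p under 0.05 in limma was reached by 0 to 2 of them (12.7% to 46.5% of all genes). Cdkn1a passed the test in whole bone marrow and whole spleen only.

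Of 5 relatives of the members, 1 of 3 tested fell in whole bone marrow (5.08% of all genes) and 1 of 5 in bone marrow SMP (3.79%). In whole spleen 1 of 4 rose (2.80%) and 1 fell (12.4%), and in spleen SMP 2 of 5 fell (14.8%). Limma called 0 of 4 in MEP of bone marrow (0.00693% of all genes) and 0 of 4 in MEP of spleen (0.0366%). Ccng2, the paralog of Ccng1, fell in whole bone marrow (log2 change -0.75 ± 0.20 SE) and in spleen SMP (-1.80 ± 0.55), where Ccng1 rose. Sesn3, a paralog of Sesn1, fell in bone marrow SMP (-0.69 ± 0.13), whole spleen (-2.89 ± 0.54) and spleen SMP (-1.67 ± 0.52). Phlda2, a relative of Phlda3, rose in whole spleen (3.78 ± 0.89), with 39.7 ± 16.0 normalised counts in crisis mice, against 2.70 ± 2.97 in young WT mice (SD, n = 3 each).

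Genes of cell division, which p21 represses through the DREAM complex, were set beside Cdkn1a. In spleen SMP, where Cdkn1a had its smallest change, 9 of 12 rose (16.2% of all genes), and the median log2 change was 0.85. The largest rises were those of Ccnb1 (log2 change 1.48 ± 0.35 SE), Mybl2 (1.23 ± 0.28), Plk1 (1.12 ± 0.31), Birc5 (1.12 ± 0.24), Cdk1 (1.09 ± 0.26) and Bub1 (0.91 ± 0.22). In bone marrow SMP 1 of 12 was called higher (3.74% of all genes), Mybl2 (0.48 ± 0.11). In the other 4 populations limma called 0 of 12, and 0 to 2 had an unadjusted p under 0.05 (12.7% to 36.1% of all genes). In whole bone marrow and whole spleen, where Cdkn1a rose, all 12 log2 changes were positive, with medians of 0.18 and 1.16. Every crisis mouse lay above every young WT mouse for 12 of 12 in whole spleen (28.3% of all genes) and 3 of 12 in whole bone marrow (15.3%). A link between Cdkn1a and these genes was not tested.

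Levels across populations were compared on a scale shared by all libraries, as a description. In crisis, Cdkn1a was highest in whole bone marrow (2761 ± 772 normalised counts, SD, n = 3) and lowest in spleen MEP (509 ± 437), and every population overlapped its neighbour in the order. In young WT the order of Cdkn1a was spleen SMP (736 ± 107), whole bone marrow (730.3 ± 104), bone marrow SMP (584 ± 119), bone marrow MEP (249 ± 113), whole spleen (213 ± 68.5) and spleen MEP (168 ± 178), with a gap without overlap between bone marrow SMP and bone marrow MEP.

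Zmat3 had its highest crisis mean in bone marrow MEP (3200.4 ± 2594) and its highest young WT mean in whole spleen (794 ± 201), each overlapping spleen MEP. Eda2r in young WT had 18.3 ± 5.67 to 27.3 ± 4.52 in the sorted populations and 2.54 ± 2.38 to 4.53 ± 4.43 in whole bone marrow and whole spleen, and the lowest sorted population did not overlap the highest whole organ. Trp53inp1 was highest in whole bone marrow both in crisis (7909 ± 2427) and in young WT (15402 ± 2724), and lowest in spleen MEP (346 ± 221 in crisis, 855 ± 538 in young WT). Its values in spleen MEP overlapped those of spleen SMP in crisis and of bone marrow MEP in young WT.

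Aen in young WT was higher in MEP (5871 ± 383 in spleen, 5713 ± 290.3 in bone marrow) than in any other population without overlap, and lowest in whole bone marrow (1812 ± 61.1). Ccng1 in young WT likewise led in spleen MEP (7333 ± 441) and bone marrow MEP (6601 ± 341). Mdm2 in young WT ran the other way, highest in whole bone marrow (5173 ± 453) and lowest in bone marrow MEP (2618 ± 160), which overlapped spleen MEP. Trp53 was lowest in whole bone marrow (8516 ± 1123 in crisis, 8203 ± 387 in young WT) and its mean was highest in spleen MEP (17474 ± 2587 in crisis, 17348 ± 516 in young WT), overlapping spleen SMP (17375 ± 1249 in crisis, 16876 ± 1169 in young WT). Sesn1 was highest in whole spleen (8140 ± 1996 in crisis, 6391 ± 67.7 in young WT), without overlap in crisis and overlapping bone marrow SMP in young WT. Phlda3 in young WT ranged from 37.7 ± 11.7 in whole spleen to 155 ± 37.6 in bone marrow SMP, with overlap between all neighbours in that order.

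Likeness of pattern was measured as Pearson's r over the 63 assigned libraries, on log2 values centred on each population, among 13056 genes, and the libraries share mice and states. The genes most like Cdkn1a were Ppp2r3a (0.786), Ptger3 (0.778), Cish (0.776), Ift57 (0.775) and Crlf3 (0.773). Those most like Zmat3 were Eogt (0.897), Clstn1 (0.881), Tent5a (0.88), Trnp1 (0.868) and Hopx (0.85). Among the members themselves, Zmat3 and Ccng1 had an r of 0.849, Cdkn1a and Eda2r 0.699, and Aen and Trp53inp1 -0.758. The r of Cdkn1a with Ccng1 was 0.259, and that of Trp53 with Cdkn1a was 0.114.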

How the data were processed

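RNA was sequenced from whole tissue, MEP and SMP of bone marrow and spleen. Per the submitters' processing notes, Bowtie2 2.2.0, RSEM, DESeq2 and GRCm38 were used, with roles and order not stated. The authors deposited a table of normalised counts (26286 genes), used here as a normalised signal per gene, and a table of regularised log2 values (25287 genes), used as an alternative. Low values fall on 1 step size in 14 of 63 assigned libraries, and in the others they look like sums of separately scaled runs, so whole reads were not recovered and the depth in reads is unknown.

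Of the identifiers 25607 were matched to symbols. Columns of a population were divided by their median ratio to the geometric mean (log2 factors -0.92 to 0.52). Limma 3.58.1 in R 4.3.3 fitted log2(value + 1) for genes with a mean of at least 10, with 1 mean per state and a trended, robust empirical Bayes, two-sided, adjusted over all genes at 0.05, and was tested on simulated data. A fold change is on the log2(value + 1) scale and understates the change of low genes. The mouse was a random block (duplicateCorrelation, 0.277 to 0.549) in differences between populations. Ages and states were taken from the labels, and 1 library with contradictory labels entered no comparison. All members are named. From the other lists, genes called in crisis against young WT are named, at most the 6 largest changes per list and population, and the 5 genes most like Cdkn1a and Zmat3. Members and lists were chosen with earlier results of these data known. Promoter windows come from RefSeq, and those of Zmat3 and Trp53inp1 are not used here.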

Additional observations from a re-analysis of the deposited data

Results flagged for a closer look

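One whole spleen library, from mouse 27265, was set in no group because its labels disagree with those of the mouse's other libraries, and 5 members were above the highest of the 4 WT whole spleen libraries in it. Cdkn1a had 413 normalised counts in this library, against at most 302 in WT. Aen had 2949, against at most 2268 in WT. Mdm2 had 4671 and Trp53 10116 in this library, against at most 4519 and 9946 in WT. Sesn1 had 7334, against at most 6472 in WT. Below the lowest WT value were Trp53inp1 with 5072 (lowest WT 8386), Zmat3 with 558 (lowest WT 599) and Phlda3 with 24.6 (lowest WT 30.8). Ccng1 had 4498, within the WT range, and Eda2r was at 0, as in the lowest WT library. Over all genes the library lay at 0.43 on the axis from young WT (0) to crisis (1). The share of all genes above or below the WT range in this library was not counted, so the members are not set apart from other genes. No formal test for outlying samples was run within groups, since none held over 3 mice.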

How the results depend on the processing

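Over the alternatives tried, no change of a called member reversed its sign, while 5 of 60 changes between crisis and young WT did so without rescaling or in the regularised log2 table, 1 for Cdkn1a, 1 for Mdm2 and 3 for Trp53, none of them called. Main counts of called members were 3 in whole bone marrow, 0 in bone marrow MEP, 2 in bone marrow SMP, 2 in whole spleen, 0 in spleen MEP and 4 in spleen SMP. Without rescaling these were 1 in whole bone marrow, bone marrow SMP and whole spleen and 0 in spleen SMP, and remission against crisis gave 1 in whole bone marrow and 1 in bone marrow SMP. The median change of all genes without rescaling was -0.55 in spleen SMP, 0.19 in spleen MEP, -0.12 in whole spleen and 0.11 in bone marrow SMP. The regularised log2 table gave 1 in whole bone marrow and 0 in bone marrow SMP, whole spleen and spleen SMP. Without a filter there was 1 in bone marrow SMP and 1 in whole spleen. A fit of the compared groups alone gave 0 in bone marrow SMP, 5 in whole spleen and 2 in spleen SMP. With all WT mice as the control there were 4 in bone marrow SMP and 4 in whole spleen, and a covariate for single-step libraries gave 0 in whole spleen. Without mice 2726 and 27265 there were 6 in whole spleen, 1 in whole spleen for each remission comparison, and 2 for the organ difference in whole tissue. The fits of whole spleen alone held no library of mouse 27265, so only mouse 2726 was left out there. The cause of these shifts was not tested. For crisis against young WT, mice of these 2 states were also left out 1 at a time. This gave 0 to 5 in whole bone marrow, 0 to 4 in bone marrow MEP, 0 to 5 in bone marrow SMP, 0 to 1 in whole spleen, 0 to 1 in spleen MEP and 0 to 6 in spleen SMP. For remission against crisis the range was 0 to 3 in whole bone marrow, 0 to 2 in bone marrow MEP, 0 to 5 in bone marrow SMP, 0 to 1 in whole spleen and 0 to 2 in spleen SMP, and for remission against older WT 0 to 1 in whole spleen. Not run were remission against older WT without the only older WT mouse in whole spleen and spleen SMP, and the single-step covariate in spleen SMP, where no library is of that kind. No paired analysis was possible between states because the states hold different mice and the replicate numbers only name them. For the differences between populations the fit with no replicate block also gave 0 called members in each of the 5. With 3 mice a group and the depth in reads unknown, the part of either in the precision was not tested.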
